A study of Mus musculus with 77 samples.

Results

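The injury responses of the neuronal and the glial translatome of mouse dorsal root ganglia (DRG) were compared gene by gene 12 h after sciatic nerve injury. The quantity compared was the interaction, that is, the log2 change of the Isl1 pull-down at 12 h against naive ganglia minus the log2 change of the Dhh pull-down at 12 h against naive ganglia. Its members were all replicates of the 4 groups involved, 12 of the 77 samples of the series, and all genes listed in the count tables of both lines. These tables shared 10029 genes, of which 9972 had a mean FPKM above 1 (fragments scaled by transcript length and library size) and were tested.

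The study sequenced RNA that came down with HA-tagged ribosomes (RiboTag), so that a Cre driver set which cells of the ganglion were sampled. All mice compared here were of the ICR strain and carried Ribotag on both alleles and 1 Cre allele, and by the study's methods they were males in early adulthood. The Isl1 12 h group held 3 pull-downs from Isl1 cre mice collected 12 h after the injury, and the Isl1 naive group held 3 from uninjured Isl1 cre mice. The Dhh 12 h group held 3 pull-downs from Dhh cre mice collected 12 h after the injury, and the Dhh naive group held 3 from uninjured Dhh cre mice. Pull-downs of both lines at 4 and 24 h entered the same fit and are named where used. The DRG were lumbar ganglia of the levels that feed the sciatic nerve. Isl1 is a transcription factor of sensory neurons, and Dhh is a signal made by the Schwann cell lineage. Each driver also tags any other cell with that expression history. No group is labelled as sham-operated, and each naive group served every time point, so that surgery and time of day cannot be told apart from injury. The labels do not say whether replicates were separate animals, so each p-value rests on a spread among samples that may be technical.

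A DRG holds the cell bodies of sensory neurons, each wrapped by satellite glia, and axons sheathed by Schwann cells. After an axon is cut or crushed, immediate early genes, mostly transcription factors that are switched on within minutes of a stimulus and decay fast, are followed by regeneration-associated genes such as Atf3, Jun and Sox11. Cytokines of the gp130 family signal through JAK kinases and Stat3 and induce their own inhibitor Socs3. Glia of injured nerves leave their mature state and take part in repair. A ribosome pull-down measures RNA bound to ribosomes, so that it follows both the amount of an RNA and its use in translation.

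Markers set the lines apart, although the labels give sensory neurons as the cell type of both. The summed level of 17 sensory neuron markers was 32089 to 36100 CPM (counts scaled to a library total of 1e+06) in the Isl1 12 h pull-downs and 35099 to 36135 in the Isl1 naive pull-downs, against 1540 to 1675 CPM in the Dhh 12 h pull-downs and 1282 to 1545 in the Dhh naive pull-downs. The 10 myelinating Schwann cell markers summed to 912 to 1398 CPM at 12 h and 907 to 942 in naive ganglia of the Isl1 line, against 27957 to 36664 CPM at 12 h and 27537 to 31920 in naive ganglia of the Dhh line. No marker of the endothelial or erythrocyte lists was in both tables, and 3 of 10 fibroblast, 3 of 6 mural, 1 of 12 macrophage and 2 of 7 neutrophil markers were. Isl1 12 h replicate 3 stood apart from the rest of its group, with 1398 CPM of myelinating markers against 922 and 912 in replicates 1 and 2, and with 143 CPM of fibroblast markers against 39.1 and 36.3 in the same replicates and 35.9 to 56.0 in the Isl1 naive pull-downs. In the Dhh line the fibroblast markers summed to 443 to 572 CPM at 12 h and 448 to 552 in naive ganglia. Library totals were 39982081 to 45657548 counts in the Isl1 line and 39819566 to 52297771 in the Dhh line, and Rn45s, a ribosomal RNA precursor, took 0.331 to 0.594% of them in the Isl1 and 3.0 to 3.92% in the Dhh line. TMM factors were 1.13 to 1.15 in the Isl1 12 h and 1.16 to 1.17 in the Isl1 naive group, against 0.733 to 0.814 in the Dhh 12 h and 0.879 to 0.895 in the Dhh naive group, so that Dhh log2 changes lie above the ratios of the CPM values. In pairs of replicates, chi-square per gene was 10.8 to 37.5 in the Isl1 12 h and 5.75 to 7.91 in the Isl1 naive group, against 63.5 to 201 in the Dhh 12 h and 40.3 to 72.3 in the Dhh naive group, so that no pair was a library deposited a second time and the Dhh replicates were the more variable.

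**Figure D1:**
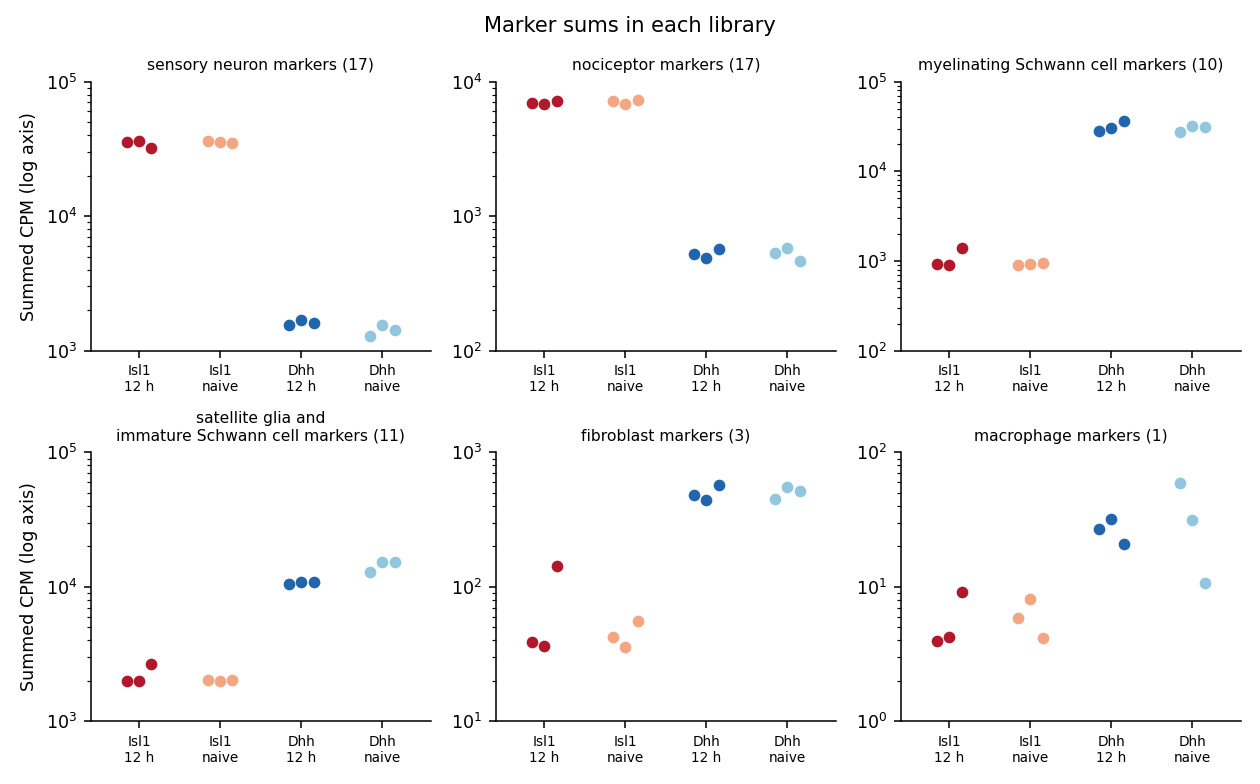
Summed CPM of marker lists in each of the 12 libraries (y, log axis), by group (x), with 1 point per library and the number of genes summed in brackets. Sensory neuron markers lay at 32089 to 36135 CPM in the Isl1 and at 1282 to 1675 CPM in the Dhh pull-downs, and Isl1 12 h replicate 3 was the highest of its group in myelinating, satellite glia, fibroblast and macrophage markers.

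At 12 h the glial pull-down moved at many genes at which the neuronal one hardly moved. The interaction was called at 2574 genes, 25.8% of those tested (edgeR quasi-likelihood test, false discovery rate under 0.1). At 1294 genes (13.0%) it was higher, that is, the Isl1 change lay above the Dhh change, and at 1280 genes (12.8%) it was lower. Within the same fit, 73 genes (0.732%) were called in the Isl1 pull-down, of which 58 rose (0.582%) and 15 fell (0.150%). In the Dhh pull-down 4900 genes (49.1%) were called, of which 2397 rose (24.0%) and 2503 fell (25.1%). The number in Isl1 rested on single libraries and on the spread used, being 15, 17 and 16 without naive replicate 1, 2 or 3 and 23 without 12 h replicate 3. With each line fitted alone, on its own spread, 512 genes were called in the Isl1 and 3234 in the Dhh pull-down. All 12 h libraries lay on the same side of all naive ones at 33.0% of genes in Isl1 and at 40.7% in Dhh. Among the genes with a called interaction, the Dhh change was the larger in 96.2%, against 76.1% of the genes not called and 81.3% of all genes. The median size of change was 0.09 log2 in Isl1 both for called and for other genes, and in Dhh it was 0.71 log2 for called and 0.23 log2 for other genes.

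Most called interactions were glial changes with no called neuronal change. Of the 1294 genes with a higher interaction, 1239 fell in Dhh with no call in Isl1, and of the 1280 with a lower one, 1227 rose in Dhh with no call in Isl1. In 13 genes with a higher interaction Isl1 rose and Dhh was not called, 38 of the higher and 35 of the lower genes were called in neither line, and 11 of the lower genes rose in both. With each line fitted alone, 191 of the higher and 91 of the lower genes were called in neither line and 55 of the lower genes rose in both. Differences past 2 log2 units lay mostly on the lower side. There the interaction was lower at 53 and higher at 10 genes, whereas past 1 log2 unit it was lower at 320 and higher at 296. Scaling moved the split of calls: size factors of DESeq2 in place of TMM gave 982 higher and 1544 lower interactions, and the DESeq2 Wald test 1117 and 1669. Median transcript length was 3896 bases in the lower and 2610 in the higher genes, against 3026 in all tested, and its part in the result was not tested.

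**Figure D2:**
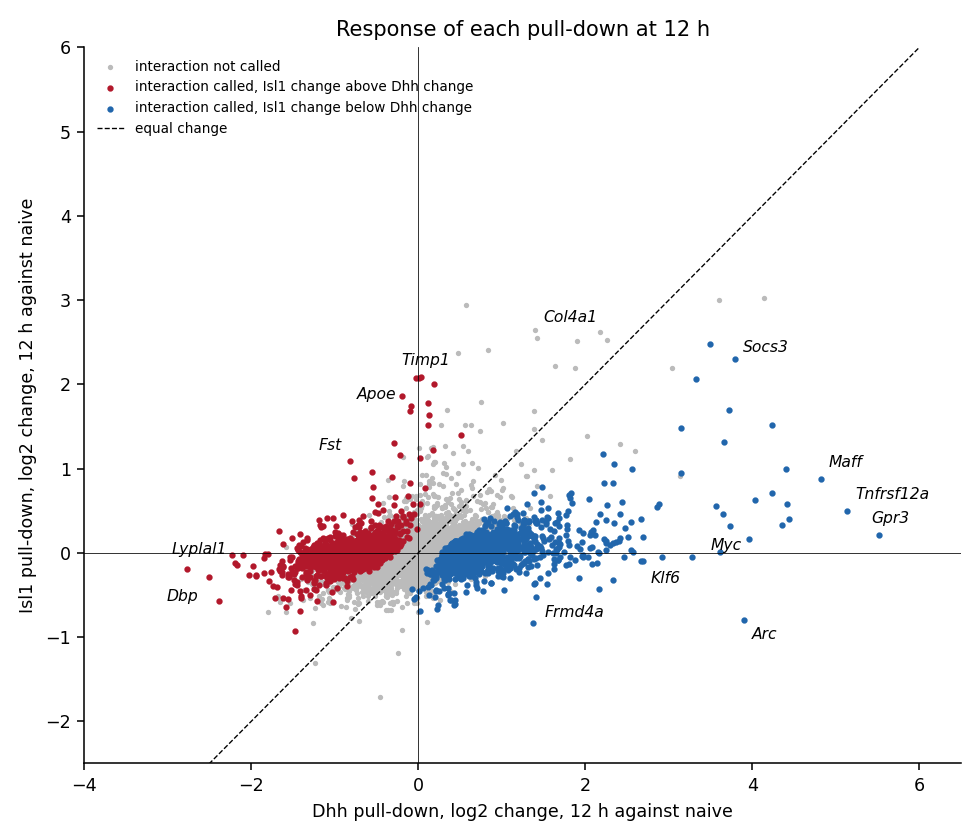
Log2 change at 12 h against naive of the Isl1 pull-down (y) and the Dhh pull-down (x), with 1 point for each of the 9972 genes tested, coloured where the interaction was called. The 1280 genes coloured blue lie below the line of equal change and the 1294 coloured red above it, and both clouds spread along the x axis.

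Immediate early genes had the largest median Dhh change of the lists described here. Of the 17 members tested 1 rose in the Isl1 pull-down and all 17 rose in the Dhh pull-down, where 24.0% of all genes rose. The interaction was lower at 15 and higher at none (88.2% called, against 25.8% of all genes), with Ier3 and Nr4a1 not called. The list's median was -2.33 log2 for the interaction, 0.58 for Isl1 and 3.65 for Dhh, against medians of 0.04, 0.02 and -0.02 over all genes tested. With Isl1 fitted alone, 6 members rose and 1 fell. Without Dhh 12 h replicate 3 the list's median Dhh change was 3.08.

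Arc, an activity-regulated gene of the postsynaptic cytoskeleton, had 2.37, 2.50 and 2.15 CPM in Isl1 12 h libraries, against 3.73, 4.44 and 4.34 CPM in Isl1 naive libraries. In the Dhh line Arc had 40.6, 71.7 and 94.5 CPM at 12 h, against 4.75, 4.45 and 6.63 CPM in naive ganglia. In neither line did the groups overlap, with all Isl1 12 h libraries below and all Dhh 12 h libraries above their naive ones. The interaction was -4.70 ± 0.40 log2 (SE, n = 3 in each group, edgeR adjusted p = 1.0e-07). The Isl1 change of Arc, -0.80 ± 0.29, was not called in the joint fit (adjusted p = 0.37) and was called with Isl1 fitted alone (adjusted p = 0.05).

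Egr1, a zinc-finger immediate early factor, had 6.71, 5.10 and 6.78 CPM in Isl1 12 h libraries, against 2.65, 4.22 and 5.81 CPM in Isl1 naive libraries. It had 113, 790.1 and 1673 CPM in Dhh 12 h libraries, against 47.3, 44.8 and 49.6 CPM in Dhh naive libraries. The 12 h libraries of the Dhh line all lay above the naive ones but differed widely from each other, replicate 1 being the lowest, and the interaction was -3.83 ± 0.79 (edgeR adjusted p = 0.0018). Maff, a small Maf protein, had 12.6, 10.9 and 12.2 CPM in Isl1 12 h against 6.93, 6.18 and 6.77 CPM in Isl1 naive libraries. The Dhh libraries had 38.5, 90.1 and 88.8 CPM at 12 h against 3.42, 3.76 and 1.68 CPM in the naive group. Its groups did not overlap in either line, and the interaction was -3.94 ± 0.52 (adjusted p = 3.0e-05). Dusp1, a phosphatase that switches MAP kinases off, had 24.3, 25.5 and 28.4 CPM in Isl1 12 h against 22.4, 24.3 and 24.6 CPM in Isl1 naive libraries, and 47.5, 122 and 200.2 CPM in Dhh 12 h against 11.4, 10.2 and 6.06 CPM in Dhh naive libraries. Only the Dhh groups of Dusp1 were separate, and its interaction was -3.79 ± 0.48 (adjusted p = 2.1e-05). Csrnp1 at -3.53 ± 0.48 and Btg2, an antiproliferative gene, at -3.19 ± 0.44 followed the same order, with adjusted p = 3.6e-05 and 4.5e-05.

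Many immediate early promoters hold the cAMP response element, bound by the Creb family, or the AP-1 site, bound by Fos and Jun. Windows around such matches are shown for 8 of the genes described here, to place the sequence beside the size of the difference, from the RefSeq promoter table (build GRCm38.p6, 250 bases before to 50 after the start site), written 5′ to 3′ on the gene's strand with the match in capitals. The letters searched on both strands were TGACGTCA for the cAMP response element and TGANTCA for AP-1, and neither contains the other. Of the 7673 tested genes with a promoter in the table, 3.87% held the first and 5.55% the second.
Dusp1, cAMP response element at -143, chr17:26508597-26508626, minus strand: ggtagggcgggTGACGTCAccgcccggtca
Maff, cAMP response element at -29, chr15:79347480-79347509, plus strand: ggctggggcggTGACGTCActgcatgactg
Btg2, cAMP response element at -166, chr1:134079303-134079332, minus strand: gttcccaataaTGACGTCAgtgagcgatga
Clk4, cAMP response element at -65, chr11:51263038-51263067, plus strand: cccgccgtcccTGACGTCAcagacccctcg
Tra2a, cAMP response element at -27, chr6:49264061-49264090, minus strand: ggtccgcccctTGACGTCAggcgccgggga
Gpr3, AP-1 at -1, chr4:133212520-133212549, minus strand: ggcggggcggggTGACTCAcgccgcgtctc
Csrnp1, AP-1 at -14, chr9:119983020-119983049, minus strand: aggccactgccgTGAGTCAccggggcgcag
Rpl22, AP-1 at -70, chr4:152325644-152325673, plus strand: gtccagtctcccTGAGTCAttcgcagtggg
Of the 5 genes shown with the cAMP response element, Dusp1, Maff, Btg2 and Clk4 had a lower interaction, and Tra2a had a higher one, so that the same 8 letters stood before genes with opposite differences. The AP-1 letters likewise stood before genes of both kinds, as Gpr3 and Csrnp1 had a lower and Rpl22 a higher interaction. These windows are a selection. AP-1 matches at Eif1, Hspa5, Osmr, Bag3 and Srxn1, with a lower interaction, and at Ndufa9, with a higher one, are not shown. Nor are those at Esrrg and Itga3, which were not called, or a further match at Csrnp1. The search allowed any middle base, so that TGATTCA at Osmr was counted as well. Among called genes with a promoter, AP-1 stood in 8.4% of those with a lower and 4.42% of those with a higher interaction. The cAMP response element stood in 5.1% and 2.36% of them. The difference between these shares was not tested.

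Transcription factors of regeneration also rose in the glial pull-down. Of 14 tested, 2 rose in Isl1, 11 rose and 1 fell in Dhh, and the interaction was lower at 10 (Atf3, Jun, Stat3, Klf6, Myc, Cebpd, Smad1, Atf2, Xbp1 and Nfil3) and higher at 1, Creb1. The list's median interaction was -0.94 log2, and 78.6% of its members were called, against 25.8% of all genes. Klf6, a growth-promoting Krüppel-like factor, had 47.7, 47.3 and 53.2 CPM in Isl1 12 h against 54.7, 52.5 and 55.7 CPM in Isl1 naive libraries. In the Dhh line Klf6 reached 1136, 1506 and 2199 CPM at 12 h, against 288, 272 and 301 CPM in naive libraries. Its Isl1 groups overlapped and its Dhh groups did not, and the interaction was -2.79 ± 0.26 (edgeR adjusted p = 4.1e-07).

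Myc, a driver of cell growth, had 14.4, 14.4 and 14.0 CPM in Isl1 12 h against 11.5, 11.5 and 12.3 CPM in Isl1 naive libraries. Its level was 51.6, 88.5 and 109 CPM in Dhh 12 h against 9.87, 6.45 and 5.26 CPM in Dhh naive libraries. In naive ganglia Myc was the higher in the Isl1 line and at 12 h the higher in the Dhh line, and the interaction was -3.42 ± 0.33 (adjusted p = 5.7e-07). Jun, a partner of Fos and Atf3, had 141, 152 and 113 CPM in Isl1 12 h against 97.3, 90.7 and 89.7 CPM in Isl1 naive libraries, and 131, 275 and 385 CPM in Dhh 12 h against 44.7, 42.1 and 36.9 CPM in Dhh naive libraries. The groups of Jun did not overlap in either line. Its change was 0.58 ± 0.24 in Isl1, against 2.88 ± 0.25 in Dhh. The Isl1 change was called with the line fitted alone (adjusted p = 0.03) and not in the joint fit (adjusted p = 0.53), and the interaction was -2.30 ± 0.34 (adjusted p = 8.3e-05). Stat3, the transcription factor of gp130 signalling, rose in Dhh by 1.16 ± 0.10, and its interaction was -0.94 ± 0.14 (adjusted p = 1.0e-04).

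**Figure D3:**
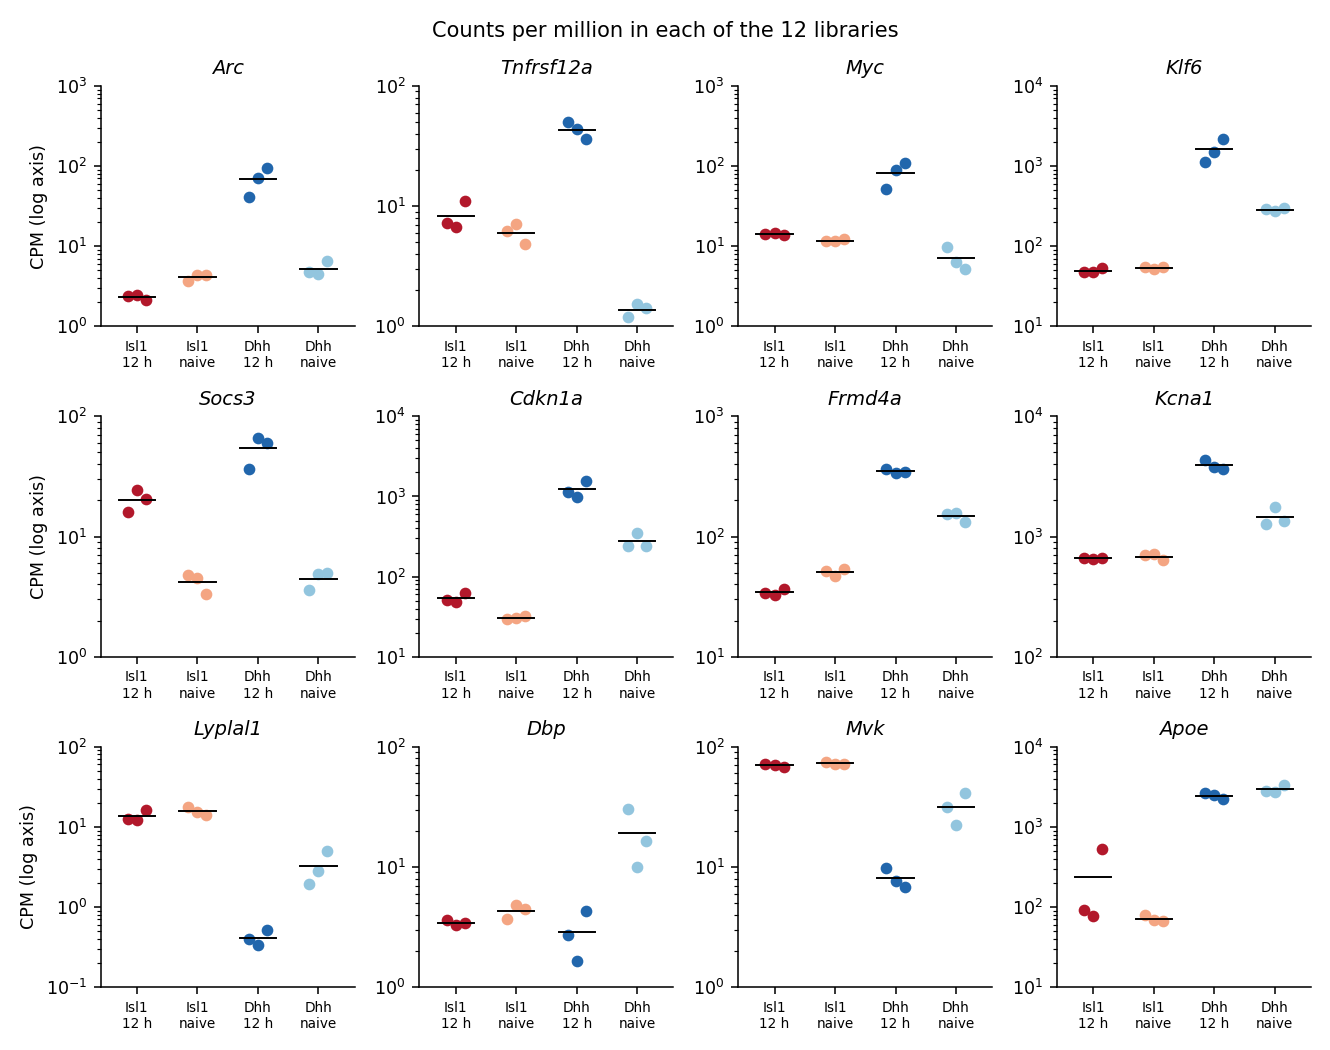
CPM of 12 genes in each of the 12 libraries (y, log axis), by group (x), with 1 point per library and the mean as a line. For Arc, Tnfrsf12a, Myc, Klf6 and Kcna1 every Dhh 12 h library lies above every Dhh naive one, and for Apoe Isl1 12 h replicate 3 lies apart from replicates 1 and 2, with 91.8, 77.8 and 536 CPM in replicates 1 to 3.

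The genes with the lowest interactions reached beyond transcription factors. Gpr3, a receptor that raises cAMP without a known ligand, had 5.68, 5.63 and 4.35 CPM in Isl1 12 h against 4.70, 4.56 and 4.55 CPM in Isl1 naive libraries. In the Dhh line it had 1.29, 9.33 and 8.30 CPM at 12 h against 0.226, 0.0941 and 0.153 CPM in naive libraries. Gpr3 was thus almost undetected in naive Dhh libraries, its Dhh 12 h replicate 1 was the lowest of the group, and its interaction of -5.30 ± 0.68 (edgeR adjusted p = 2.6e-05) was the lowest among the genes that met the naming rule. Tnfrsf12a, the receptor of the cytokine TWEAK, had 7.25, 6.72 and 11.0 CPM in Isl1 12 h against 6.20, 7.05 and 4.82 CPM in Isl1 naive libraries. In Dhh it had 50.1, 43.6 and 36.3 CPM at 12 h against 1.21, 1.53 and 1.42 CPM in naive libraries. The order of the lines turned round between naive ganglia and 12 h, and the interaction was -4.64 ± 0.41 (adjusted p = 2.3e-07). Frat2, a GSK3-binding protein, at -3.41 ± 0.43, Nfil3, a bZIP repressor, at -4.03 ± 0.72, and Fam105a at -3.61 ± 0.57 had adjusted p = 1.8e-05, 5.2e-04 and 1.6e-04.

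Genes of the glucocorticoid response rose in glia as well. Of the 12 glucocorticoid response genes tested 2 rose in Isl1 and all 12 rose in Dhh, with 7 lower and 0 higher interactions and medians of 0.60 log2 in Isl1 and 1.96 in Dhh. With Isl1 fitted alone 6 of the 12 rose. The interaction was called at 58.3% of the list, against 25.8% of all genes, and 24.0% of all genes rose in Dhh. The members with a lower interaction were Fkbp5, Sgk1, Zbtb16, Cdkn1a, Errfi1, Nfkbia and Dusp1, whereas Tsc22d3, Per1, Klf9, Mt2 and Angptl4 were not called. Fkbp5, a co-chaperone of the glucocorticoid receptor, had 78.6, 78.5 and 88.2 CPM in Isl1 12 h against 68.2, 65.3 and 63.7 CPM in Isl1 naive libraries, and 105, 102 and 40.6 CPM in Dhh 12 h against 22.4, 27.9 and 4.00 CPM in Dhh naive libraries. Neither line's groups overlapped, naive replicate 3 of Dhh being the lowest library, and the interaction was -2.00 ± 0.59 (edgeR adjusted p = 0.023). The same naive library was the lowest for Sgk1, a kinase induced by glucocorticoids, at 189, 264 and 331 CPM in Dhh 12 h against 88.9, 97.5 and 21.7 CPM in Dhh naive libraries, and for Zbtb16, a zinc-finger repressor, at 107, 102 and 72.8 CPM in Dhh 12 h against 11.1, 14.0 and 1.82 CPM in Dhh naive libraries. The interaction was -1.90 ± 0.54 at Sgk1 and -3.02 ± 0.68 at Zbtb16 (adjusted p = 0.017 and 0.0039).

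Of the 15 growth arrest and p53 response genes tested, 5 had a lower interaction (Cdkn1a, Gadd45a, Gadd45b, Mdm2 and Sesn2) and 2 a higher one (Sesn3 and Ccng1). These made up 46.7% of the list, against 25.8% called among all genes. Cdkn1a, the cell cycle inhibitor p21, was among the 11 genes with a lower interaction that rose in both lines. It had 50.7, 48.2 and 61.9 CPM in Isl1 12 h against 29.9, 30.3 and 32.2 CPM in Isl1 naive libraries. The Dhh libraries had 1121, 979 and 1573 CPM at 12 h against 238, 352 and 241 CPM in the naive group. All 12 h libraries lay above the naive ones in both lines, with changes of 0.83 ± 0.19 in Isl1 and 2.34 ± 0.19 in Dhh and an interaction of -1.50 ± 0.26 (edgeR adjusted p = 4.4e-04). Without Isl1 12 h replicate 3 its Isl1 change was not called (0.73, adjusted p = 0.29), nor without any 1 of the Isl1 naive replicates. Gadd45b, a stress-induced growth arrest gene, had 24.0, 39.8 and 41.2 CPM in Dhh 12 h against 1.36, 1.03 and 3.37 CPM in Dhh naive libraries and an interaction of -4.03 ± 0.44 (adjusted p = 2.3e-06).

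Genes of gp130 signalling did not move as a block. Of 14 tested, 4 had a lower interaction (Osmr, Socs3, Serpina3n and Bcl3) and 4 a higher one, Lifr, Socs2 and Timp1 among them, and the median interaction was -0.07 log2. The share called was 57.1%, against 25.8% of all genes. Socs3, the inhibitor that Stat3 induces, rose in both lines. It had 16.1, 24.2 and 20.5 CPM in Isl1 12 h against 4.80, 4.54 and 3.35 CPM in Isl1 naive libraries. In Dhh it had 36.8, 66.3 and 59.9 CPM at 12 h against 3.57, 4.89 and 4.93 CPM in naive libraries. The naive levels of the lines were alike, all 12 h libraries lay above them, and the rise was 2.30 ± 0.27 in Isl1 and 3.79 ± 0.28 in Dhh, a difference of -1.49 ± 0.37 (edgeR adjusted p = 0.0071). Osmr, the oncostatin M receptor, had 64.1, 61.8 and 80.5 CPM in Isl1 12 h against 59.5, 51.5 and 54.9 CPM in Isl1 naive libraries, and 147, 74.2 and 46.4 CPM in Dhh 12 h against 35.1, 36.6 and 24.0 CPM in Dhh naive libraries. Neither line's groups overlapped, and its change was 0.35 ± 0.24 in Isl1, not called, and 1.64 ± 0.24 in Dhh, an interaction of -1.29 ± 0.34 (adjusted p = 0.01).

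Serpina3n, a secreted protease inhibitor of the acute phase, rose in Dhh by 2.07 ± 0.26, and its interaction was -1.82 ± 0.35 (edgeR adjusted p = 0.001). Timp1, a secreted inhibitor of metalloproteinases, was higher in the interaction, with 1.24, 1.64 and 1.80 CPM in Isl1 12 h against 0.275, 0.531 and 0.313 CPM in Isl1 naive libraries. The Dhh libraries had 3.45, 2.31 and 0.899 CPM at 12 h against 1.41, 1.81 and 3.98 CPM in the naive group. The Isl1 groups of Timp1 did not overlap, the Dhh groups did, and the interaction was 2.06 ± 0.77 (adjusted p = 0.067), a call that was lost in 8 of 23 alternatives, leaving out Isl1 12 h replicate 3 (1.95, adjusted p = 0.11) or 2, Isl1 naive replicate 1 or 3, Dhh 12 h replicate 3 or Dhh naive replicate 3 among them. Timp1 was one of the 12 highest interactions by the naming rule, as was Fst, the activin-binding protein follistatin. Fst had 4.42, 4.21 and 4.18 CPM in Isl1 12 h against 2.05, 2.00 and 2.12 CPM in Isl1 naive libraries, and 2.00, 3.55 and 1.41 CPM in Dhh 12 h against 2.89, 3.46 and 7.40 CPM in Dhh naive libraries. Every Isl1 12 h library of Fst lay above every naive one, the Dhh groups overlapped, neither change was called, and the interaction was 1.91 ± 0.57 (adjusted p = 0.023).

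On the other side, the highest interactions were mostly glial falls. Lyplal1, a lysophospholipase-like protein, had 12.5, 12.1 and 16.0 CPM in Isl1 12 h against 17.9, 15.5 and 14.3 CPM in Isl1 naive libraries. In Dhh it had 0.395, 0.339 and 0.514 CPM at 12 h against 1.93, 2.82 and 4.93 CPM in naive libraries. Its Isl1 groups overlapped, its Dhh 12 h libraries all lay below the naive ones, and the interaction was 2.58 ± 0.41 (edgeR adjusted p = 1.9e-04). Mvk, mevalonate kinase of sterol synthesis, had 71.2, 70.3 and 67.9 CPM in Isl1 12 h against 74.1, 71.8 and 71.5 CPM in Isl1 naive libraries, and 9.72, 7.66 and 6.83 CPM in Dhh 12 h against 31.6, 22.3 and 41.4 CPM in Dhh naive libraries. All 12 h libraries lay below the naive ones, by little in Isl1 and far in Dhh, and the interaction was 1.78 ± 0.22 (adjusted p = 1.3e-05). Ethe1, a mitochondrial dioxygenase of sulfide breakdown, at 1.82 ± 0.35, Sfxn4, a mitochondrial sideroflexin, at 2.02 ± 0.48, Mettl8, a methyltransferase of mitochondrial tRNA, at 2.07 ± 0.35, and Rab29, a small GTPase, at 2.07 ± 0.35 had adjusted p = 9.8e-04, 0.0051, 3.1e-04 and 3.4e-04.

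Clock genes went both ways. Dbp, a bZIP factor that the clock drives, had 3.65, 3.26 and 3.41 CPM in Isl1 12 h against 3.68, 4.83 and 4.46 CPM in Isl1 naive libraries. In the Dhh line it had 2.70, 1.65 and 4.32 CPM at 12 h against 30.5, 9.90 and 16.5 CPM in naive libraries. All 12 h libraries lay below the naive ones in both lines, Dhh naive replicate 1 being the highest, and the interaction was 2.21 ± 0.47 (edgeR adjusted p = 0.0022). Tef, a relative of Dbp, at 0.86 ± 0.20 and Nr1d1, the repressor Rev-erb alpha, at 0.86 ± 0.18 were also higher, whereas Clock, Cry1, Cry2, Bhlhe41 and Nfil3 were lower and Per1, Nr1d2, Bhlhe40 and Ciart were not called. The median interaction of the 12 clock genes was -0.40 log2, and 0.05 without Dhh 12 h replicate 3. Calls stood at 66.7% of these genes, against 25.8% of all genes. Time of day cannot be told apart from injury in these values.

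The unfolded protein and integrated stress response genes leaned to the glial side. Of 22 tested, 2 rose in Isl1, 14 rose and 1 fell in Dhh, and the interaction was lower at 9 and higher at 0, with a median of -0.42 log2. The interaction was called at 40.9% of the list, against 25.8% of all genes, and 24.0% of all genes rose in Dhh. Hspa5, the chaperone BiP of the endoplasmic reticulum, had 329.5, 335 and 327 CPM in Isl1 12 h against 317, 290.2 and 310.1 CPM in Isl1 naive libraries, and 618, 1104 and 642 CPM in Dhh 12 h against 428, 525 and 272 CPM in Dhh naive libraries. Neither line's groups overlapped, and the interaction was -0.98 ± 0.29 (edgeR adjusted p = 0.024). Dnajb9, a co-chaperone of Hspa5, at -0.85 ± 0.25 and Xbp1, a transcription factor of this response, at -0.87 ± 0.26 were lower too. Atf4, a transcription factor of the integrated stress response, and Ddit3, the factor CHOP, were not called.

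Sterol synthesis genes went both ways within glia. The interaction was higher at Hmgcs1, Fdps, Mvk, Lss and Acat2, which are enzymes of the pathway or of its precursors, and lower at 3 genes, Insig1 among them, out of 23 tested, of which none was called in Isl1 and 5 rose and 10 fell in Dhh. The share with a called interaction was 34.8%, against 25.8% of all genes, of which 24.0% rose and 25.1% fell in Dhh. Hmgcs1 had 863, 846 and 773 CPM in Isl1 12 h against 918, 878 and 938 CPM in Isl1 naive libraries, and 881, 899 and 785 CPM in Dhh 12 h against 1661, 1608 and 2419 CPM in Dhh naive libraries. All 12 h libraries lay below the naive ones in both lines, and farther below in Dhh, and the interaction was 0.87 ± 0.21 (edgeR adjusted p = 0.0053). Insig1, which holds the sterol sensor in the endoplasmic reticulum, had a lower interaction at -1.15 ± 0.29 (adjusted p = 0.0086).

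Subunits of oxidative phosphorylation had only higher interactions among those called. Of 77 tested, 16 were higher and 0 lower, with a median of 0.29 log2. The share called, 20.8%, was below the 25.8% of all genes. None was called in Isl1, while 2 rose and 24 fell in Dhh, where 24.0% of all genes rose and 25.1% fell. The list's median Dhh change was -0.20 log2, and -0.07 without Dhh naive replicate 3. The called members were subunits of complex I (such as Ndufs1 at 0.43 ± 0.13 and Ndufa9 at 0.54 ± 0.16), the ATP synthase (Atp5k at 1.02 ± 0.28) and cytochrome c (Cycs). With Dhh fitted alone 8 members fell and none rose. Interferon response genes had 3 higher and 1 lower interaction of 19 tested (21.1% called, also below the share of all genes). Oasl2, an oligoadenylate synthetase-like gene, had 39.1, 45.7 and 45.7 CPM in Isl1 12 h against 54.0, 49.5 and 39.4 CPM in Isl1 naive libraries, and 23.8, 20.6 and 21.2 CPM in Dhh 12 h against 75.0, 88.4 and 67.2 CPM in Dhh naive libraries. Only its Dhh groups did not overlap, with an interaction of 1.54 ± 0.28 (edgeR adjusted p = 6.8e-04).

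The translation machinery was mixed, with calls at 20.9% of initiation factors and 10.3% of ribosomal protein genes against 25.8% of all genes. Of 43 initiation factors and eIF2 kinases tested, the interaction was lower at Eif1, Eif1a, Eif2s1, Eif2s2, Eif3c and Eif4g1 and higher at Eif2ak1, Eif2ak2 and Eif2b5. Eif1a, which helps the small ribosomal subunit to scan, had 111, 116 and 110.4 CPM in Isl1 12 h against 108, 104 and 116 CPM in Isl1 naive libraries. The Dhh libraries had 318, 350 and 289 CPM at 12 h against 97.9, 76.1 and 82.5 CPM in the naive group. The Isl1 groups overlapped, the Dhh groups lay far apart, and the interaction was -2.00 ± 0.15 (edgeR adjusted p = 1.8e-08). Eif4e, the cap-binding protein, had 112, 115 and 114 CPM in Isl1 12 h against 118, 117 and 113 CPM in Isl1 naive libraries, and 82.1, 81.0 and 70.0 CPM in Dhh 12 h against 91.9, 100.5 and 90.2 CPM in Dhh naive libraries. Its interaction of 0.11 ± 0.13 was not called (adjusted p = 0.58). Of 78 ribosomal protein genes, 7 were higher and 1, Rpl36al, was lower, with a median of 0.16 log2. By the study's methods only reads with a unique position were kept, and the part of pseudogenes in these counts was not tested. Rpl22, the gene that carries the tag, was among the 7, with 73.1, 74.6 and 67.6 CPM in Isl1 12 h against 69.3, 72.4 and 72.8 CPM in Isl1 naive libraries and 19.5, 17.7 and 15.1 CPM in Dhh 12 h against 27.4, 24.3 and 31.2 CPM in Dhh naive libraries. Its interaction was 0.53 ± 0.21 (adjusted p = 0.081), a call lost in 12 of 23 alternatives.

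CLK kinases and SR proteins, which set splice site choice, moved apart. Clk1, Clk3, Clk4, Srsf5, Srsf11 and Ddx5 had a lower interaction and Srsf1, Srsf3, Srsf9, Tra2a and Ddx17 a higher one. They were 11 of 20 tested (55%, against 25.8% of all genes). Clk4 had 8.81, 12.3 and 13.8 CPM in Isl1 12 h against 12.3, 14.6 and 17.9 CPM in Isl1 naive libraries, and 92.7, 119 and 120.5 CPM in Dhh 12 h against 27.6, 20.4 and 27.4 CPM in Dhh naive libraries. The Dhh groups of Clk4 were far apart and the Isl1 groups overlapped, and the interaction was -2.65 ± 0.26 (edgeR adjusted p = 7.5e-07). Tra2a, a splicing activator, had 45.2, 46.6 and 41.9 CPM in Isl1 12 h against 53.7, 51.6 and 56.1 CPM in Isl1 naive libraries and 22.9, 34.3 and 18.1 CPM in Dhh 12 h against 95.3, 129.7 and 80.8 CPM in Dhh naive libraries. Both lines of Tra2a had all 12 h libraries below the naive ones, and the interaction was 1.62 ± 0.26 (adjusted p = 1.9e-04).

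Among the effectors of regeneration and glial repair the called differences were mostly glial rises. The interaction was called at 47.1% of the regeneration effectors, against 25.8% of all genes. In the other lists of this paragraph, of 8 to 11 genes, the shares lay nearer to that of all genes. They were 25% for glial repair, 33.3% for neurotrophin and GDNF receptors, 27.3% for cytokines and chemokines and 30% for metallothioneins and oxidative stress. Of 17 regeneration effectors tested 7 had a lower interaction (Basp1, Cacna2d1, Flrt3, Tubb6, Tubb2b, Lgals3 and Tnfrsf12a) and 1, Csf1, a higher one, a call lost in 16 of 23 alternatives, among them the replicate block and leaving out any 1 Isl1 12 h replicate. Lgals3, the lectin galectin-3, had 25.7, 24.9 and 25.1 CPM in Isl1 12 h against 21.9, 21.6 and 25.9 CPM in Isl1 naive libraries, and 58.3, 45.7 and 19.5 CPM in Dhh 12 h against 11.1, 7.58 and 10.8 CPM in Dhh naive libraries. Only its Dhh groups did not overlap, and the interaction was -2.06 ± 0.33 (edgeR adjusted p = 1.8e-04). Of 8 genes of glial injury and repair Schwann cells the transcription factors Runx1 at -0.74 ± 0.21 and Runx2 at -0.95 ± 0.20 were lower and none higher. Of 9 receptors of neurotrophins and GDNF 3 were lower, Ret, Gfra1 and Gfra3, with the call at Gfra3 lost in 9 of 23 alternatives. Of 11 cytokines and chemokines 1, again Csf1, was higher and 2 were lower, Tgfb2 and Il34, a ligand of the Csf1 receptor, at -0.92 ± 0.19 (adjusted p = 0.0021). Of 10 genes of metallothioneins and oxidative stress 3 were lower, led by Txnrd1, a thioredoxin reductase, at -1.17 ± 0.16 (adjusted p = 3.3e-05).

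Housekeeping groups showed calls on both sides, at shares below the 25.8% of all genes except in the cell cycle list. The interaction was higher at 2 and lower at 2 of 20 heat shock proteins and co-chaperones (20% called), at 4 and 4 of 41 proteasome subunits (19.5%), at 3 and 4 of 33 transport motors (21.2%), at 1 and 1 of 18 aminoacyl-tRNA synthetases (11.1%), and at 3 and 1 of 9 cell cycle genes (44.4%). Dnaja1, a co-chaperone of Hsp70, at 0.88 ± 0.15 and Dars, the aspartyl-tRNA synthetase, at 0.86 ± 0.15 fell in Dhh with no call in Isl1, as did Dynll1, a dynein light chain, at 1.15 ± 0.19 and P2rx4, an ATP-gated channel, at 1.19 ± 0.15. Kif21a, a kinesin, at -0.90 ± 0.15 rose in Dhh with no call in Isl1. No myelinating Schwann cell marker of the 10 tested was called for the interaction.

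**Figure D4:**
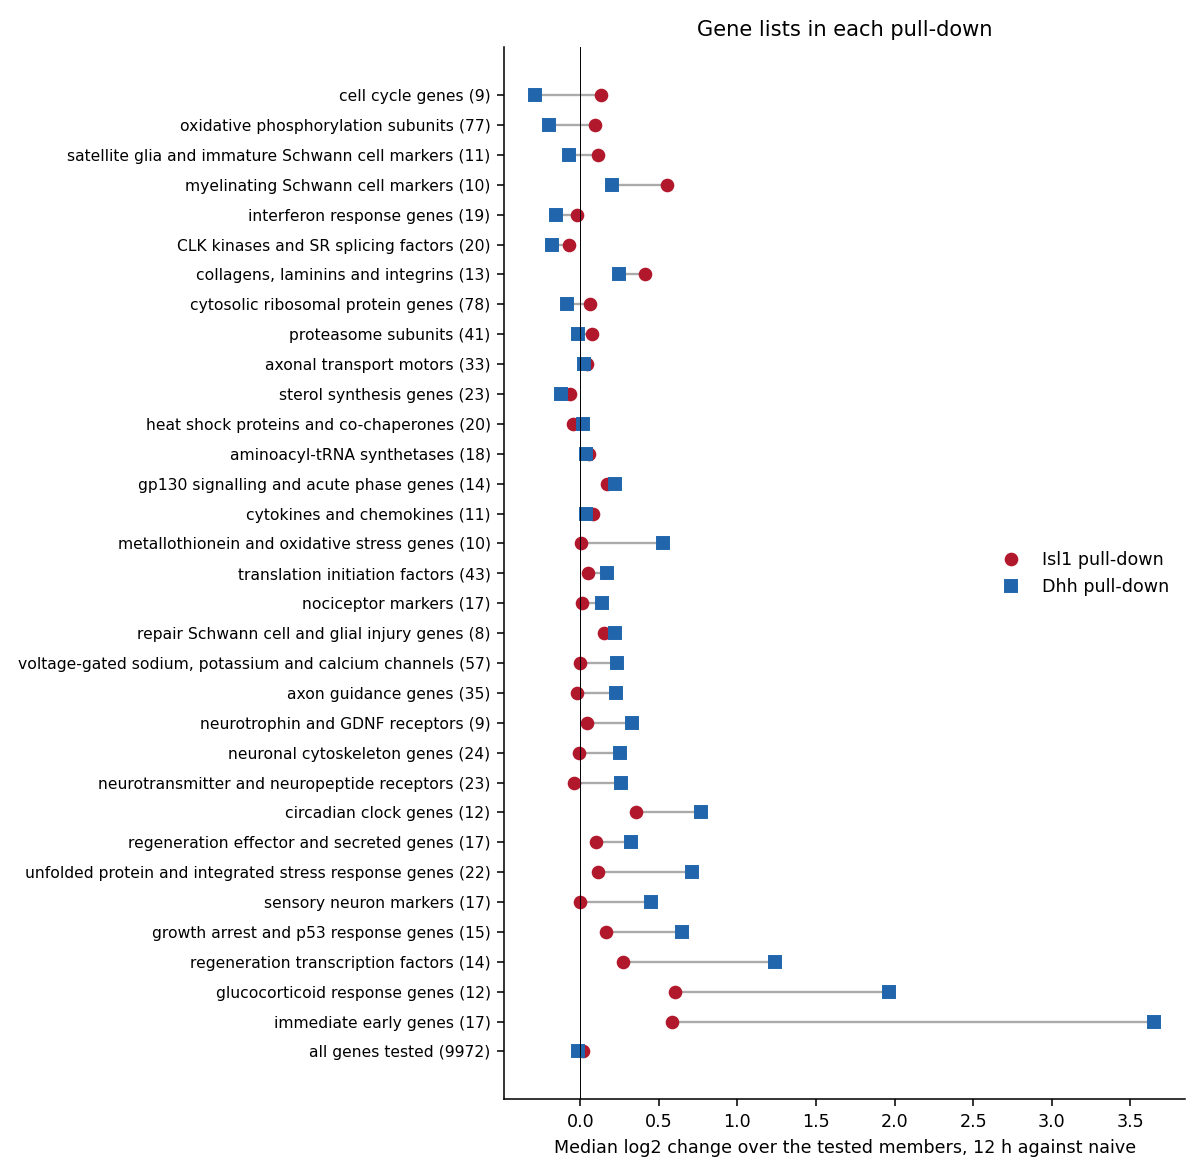
Median log2 change at 12 h against naive over the tested members of each gene list (x) in the Isl1 pull-down (circles) and the Dhh pull-down (squares), with the number tested in brackets (y). The medians of immediate early genes were 0.58 in Isl1 and 3.65 in Dhh, and those of all genes tested were 0.02 and -0.02. The list drawn as voltage-gated channels also holds other potassium channels and accessory subunits.

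General sensory neuron markers mostly rose in the Dhh pull-down, from a level far below that of the Isl1 pull-down. Of 17 sensory neuron markers tested, none was called in Isl1 and 11 rose in Dhh, and the interaction was lower at 10 and higher at 0, with a median of -0.42 log2. The interaction was called at 58.8% of these markers, against 25.8% of all genes, and 24.0% of all genes rose in Dhh. Tubb3, the neuronal beta-tubulin, had 3670, 3494 and 3539 CPM in Isl1 12 h against 3720, 3627 and 3700 CPM in Isl1 naive libraries. In Dhh it had 18.7, 19.6 and 15.0 CPM at 12 h against 13.2, 13.2 and 15.3 CPM in naive libraries, where the groups overlapped, and the interaction was -0.53 ± 0.13 (edgeR adjusted p = 0.0054). The summed sensory neuron markers in Dhh were 1.13 times the naive level as CPM and 1.28 times after TMM scaling. Of 17 nociceptor markers 6 rose in Dhh and their sum was 1.01 times the naive level as CPM and 1.14 times after TMM scaling, and of 4 proprioceptor markers none rose and 1 fell, with a sum of 0.73 times as CPM and 0.82 times after TMM scaling. In the same pull-downs the 11 satellite glia markers summed to 10439 to 10926 CPM at 12 h against 12858 to 15282 in naive libraries, a ratio of 0.74 as CPM and 0.84 after TMM scaling. The part of these shifts in the other lists was not tested, and in pull-downs of a whole ganglion fewer cells of a type and less RNA per cell cannot be told apart.

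Channel genes held calls in both directions, at a share below that of all genes. The list held sodium, potassium and calcium channel genes, with accessory subunits and with potassium channels that are not voltage-gated, such as Kcnj12 and Kcnk1. Of the 57 tested, 7 had a lower interaction (Cacna2d1, Kcna1, Kcna6, Kcnh1, Kcnj12, Kcnk1 and Kcns3). A higher one was called at 3 (Kcnip3, Kcnmb4 and Scn3b), in all 17.5% against 25.8% of all genes. Kcna1, a potassium channel subunit, had 667, 656 and 669 CPM in Isl1 12 h against 696, 712 and 639 CPM in Isl1 naive libraries. The Dhh libraries had 4334, 3813 and 3663 CPM at 12 h against 1278, 1755 and 1347 CPM in the naive group. Kcna1 was thus the higher in the Dhh line already in naive ganglia, its Isl1 groups overlapped, and the interaction was -1.61 ± 0.16 (edgeR adjusted p = 1.0e-06). Of 24 neuronal cytoskeleton genes 8 were lower, such as Map1b at -0.79 ± 0.17, and 1, Stmn1, was higher (37.5% called). Of 35 axon guidance genes 6 were lower, such as Plxna4 at -0.62 ± 0.14, and 4 higher, such as Sema6d at 0.53 ± 0.14 (28.6% called). Tgfb2, a growth factor of the TGF-beta family, had 7.88, 7.45 and 7.55 CPM in Isl1 12 h against 7.60, 7.72 and 7.71 CPM in Isl1 naive libraries and 96.3, 72.3 and 108 CPM in Dhh 12 h against 42.0, 38.7 and 41.2 CPM in Dhh naive libraries. Its Dhh groups did not overlap, and its interaction was -1.34 ± 0.19 (adjusted p = 4.7e-05).

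Few genes were called in both lines with opposite directions. They were 5 of the 2574, and in 4 of them (Frmd4a, Tnrc6a, Sptan1 and Dicer1) Isl1 fell and Dhh rose. Frmd4a, a scaffold of cell polarity, had 33.9, 32.8 and 36.8 CPM in Isl1 12 h against 51.5, 47.0 and 54.2 CPM in Isl1 naive libraries. In Dhh it had 365, 335 and 347 CPM at 12 h against 154, 158 and 133 CPM in naive libraries. No group overlapped its partner, and the changes were -0.53 ± 0.10 in Isl1 and 1.41 ± 0.10 in Dhh, an interaction of -1.94 ± 0.15 (edgeR adjusted p = 1.8e-08). Dicer1 and Tnrc6a, which make and use miRNAs, had interactions of -0.86 ± 0.16 and -1.04 ± 0.15, and Sptan1, the spectrin alpha chain of the membrane skeleton, -0.94 ± 0.17. The reverse was called at 9530077C05Rik, where Isl1 rose by 0.78 ± 0.20 and Dhh fell by 0.55 on the log2 scale. The number depended on the spread used. With each line fitted alone it was 34, of which 30 fell in Isl1 and rose in Dhh, and in the joint fit it was 0 without Isl1 naive replicate 1 or 3, 1 without Isl1 naive replicate 2 and 2 without Isl1 12 h replicate 1 or 3.

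The rises of the Isl1 pull-down depended on single libraries. Of the 58 genes that rose, replicate 3 was the highest of the 12 h libraries in 41, and 51 had a higher naive level in the Dhh than in the Isl1 line, 36 of them by more than 5-fold. The shares of all genes with these traits were not counted. Without replicate 3, 19 of the 58 were still called. The number of rises was 66 and 96 without 12 h replicate 1 or 2, and 14, 15 and 15 without naive replicate 1, 2 or 3. Apoe, the lipid carrier of satellite glia, had 91.8, 77.8 and 536 CPM in Isl1 12 h against 80.0, 68.4 and 66.7 CPM in Isl1 naive libraries. Only replicate 3 stood high, and the interaction was 1.83 ± 0.58 (edgeR adjusted p = 0.031) with it and not called without it (0.38, adjusted p = 0.12). Sox10, the glial lineage factor, had 2.03, 3.40 and 13.0 CPM in Isl1 12 h against 3.33, 3.33 and 3.44 CPM in Isl1 naive libraries, with an interaction of 1.66 ± 0.56 that was not called without replicate 3 (0.50, adjusted p = 0.39). Igfbp6, an IGF-binding protein, had an interaction of 1.82 ± 0.67 and lost its call likewise (0.29, adjusted p = 0.65). Fabp7, a satellite glia marker, was not called in Isl1 and fell in Dhh, with changes of -1.76 to -1.25 over the alternatives. Its interaction of 1.24 ± 0.49 was not called without replicate 3 (0.65, adjusted p = 0.33). That call was lost in 12 of 23 alternatives, leaving out single Isl1 naive or Dhh replicates among them. Of 13 collagens, laminins and integrins tested 5 rose in Isl1 and 7 in Dhh, where 0.582% and 24.0% of all genes rose. The interaction was higher at Col28a1 and lower at Itgb1 (15.4% called, against 25.8% of all genes), the call at Itgb1 being lost in 8 of 23 alternatives. Col4a1, a basement membrane collagen, had 6.80, 5.63 and 39.7 CPM in Isl1 12 h against 3.30, 2.37 and 2.82 CPM in Isl1 naive libraries, and 608, 459 and 571 CPM in Dhh 12 h against 222, 266 and 216 CPM in Dhh naive libraries. It rose in both lines (2.64 ± 0.48 in Isl1 and 1.40 ± 0.41 in Dhh), replicate 3 being the highest in Isl1, and the interaction of 1.24 ± 0.62 was not called (adjusted p = 0.17). Without replicate 3 its Isl1 change was 1.18, adjusted p = 0.011. Sema3b was high in replicates 1 and 3, with 21.0, 4.29 and 20.5 CPM in Isl1 12 h against 5.63, 5.14 and 4.34 CPM in Isl1 naive libraries, and its interaction of 1.51 ± 0.43 kept its call without replicate 3 (1.25, adjusted p = 0.055). The summed glial and fibroblast markers of replicate 3 are given above, and their part in these rises was not tested.

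More genes were called in the Dhh pull-down at 12 h than at 4 or 24 h, whereas in the Isl1 pull-down 24 h had the most. Of the genes tested, 0.662% were called in Isl1 at 4 h (0.0802% rose, 0.582% fell), 0.732% at 12 h and 3.10% at 24 h (2.74% rose, 0.361% fell). In Dhh 10.1% were called at 4 h (4.42% rose, 5.71% fell), 49.1% at 12 h and 9.22% at 24 h (4.69% rose, 4.52% fell). The 1280 genes with a lower interaction had a median Dhh change of 0.06 log2 at 4 h, 0.72 at 12 h and 0.11 at 24 h, and the 1294 with a higher one -0.08, -0.71 and -0.12. These genes were chosen by their 12 h values and share the naive libraries, so that the smaller medians at the other times are a description. At single genes the times took different courses. The Dhh value of Egr1 was 6.26 ± 0.63 at 4 h, 4.41 ± 0.58 at 12 h and 0.71 ± 0.56 at 24 h. The value of Tnfrsf12a was -0.02 ± 0.28 at 4 h, 0.50 ± 0.28 at 12 h and 1.71 ± 0.28 at 24 h in Isl1, and -0.15 ± 0.32, 5.14 ± 0.33 and -0.17 ± 0.36 in Dhh. In Dhh Tnfrsf12a was called at 12 h and not at 4 or 24 h, and in Isl1 it was called at 24 h and not at 4 or 12 h, with no test of the differences between times. The value of Klf6 was -0.10 ± 0.18, -0.10 ± 0.18 and 1.09 ± 0.18 in Isl1 over the same times, and 1.88 ± 0.19, 2.69 ± 0.19 and 0.12 ± 0.20 in Dhh. Dhh at 24 h had 2 libraries.

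**Figure D5:**
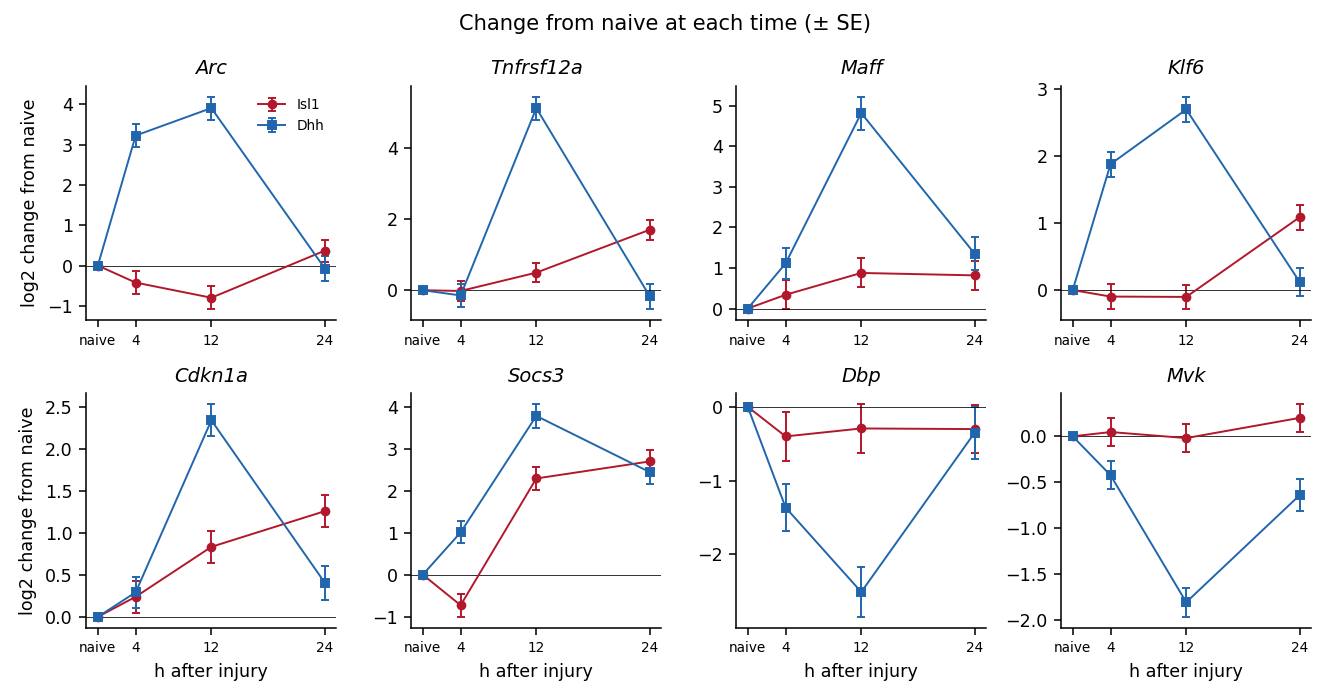
Log2 change from naive (y) of 8 genes against hours after injury (x; 4, 12, 24) in the Isl1 pull-down (circles) and the Dhh pull-down (squares), with bars of ± 1 SE from the joint fit. At Tnfrsf12a the Isl1 line stood at 0.50 at 12 h and 1.71 at 24 h, and the Dhh line at 5.14 and -0.17.

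The input of the Isl1 line, RNA of the whole ganglion that the interaction does not use, had 2 libraries at 12 h and 3 naive ones. There 559 of 12514 genes were called (4.47%), of which 278 rose (2.22%) and 281 fell (2.25%). The number was 29 and 269 without 12 h replicate 3 or 2, and 54, 152 and 291 without naive replicate 1, 2 or 3. Of the 1280 genes with a lower interaction 104 rose and 4 fell in the input, and of the 1294 with a higher one 11 rose and 30 fell, against 220 and 143 of all 9970 genes tested in both. Tnfrsf12a had 18.2 and 19.7 CPM in the 12 h input against 6.15, 5.25 and 5.51 CPM in the naive input, where the groups did not overlap, and rose by 1.80 ± 0.12 (edgeR adjusted p = 8.2e-05). Dbp had 3.23 and 2.47 CPM in the 12 h input against 14.9, 15.7 and 15.2 CPM in the naive input and fell by 2.37 on the log2 scale (adjusted p = 0.0053). Arc, with 4.27 and 2.73 CPM in the 12 h input against 5.04, 4.58 and 3.79 CPM in the naive input, was not called (-0.30 ± 0.24, adjusted p = 0.54). The labels do not say whether input and pull-down shared animals.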

How the data were processed

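RNA from HA pull-downs of L4 to L6 DRG and from their inputs was sequenced. By the study's methods ribosomal RNA was depleted, cDNA was amplified, paired-end reads were aligned to the mouse genome with STAR and counted per RefSeq gene with HTSeq, and only expressed genes were tabulated. The submitters' processing notes name CASAVA 1.8.2, edgeR and the builds mm9 and mm10, and whether counting used strand is not stated in the sources used here. The deposited tables hold counts per gene for each library, which the authors made before any normalization, and normalized signal columns of the authors, used here only to obtain the authors' library sizes. Columns of the authors' FPKM, fold changes and false discovery rates were not used. The tables listed 11550 (Isl1), 11285 (Dhh) and 12515 (input) genes, of which 21, 17 and 23 had symbols turned into dates by a spreadsheet, all restored but 1 in each. Genes listed in 1 of the 2 pull-down tables, 1520 and 1255, have no interaction.

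Counts of the shared genes from 23 libraries in 8 groups (both lines, naive and 4, 12 and 24 h) were fitted together with edgeR 4.0.16 (R 4.3.3; TMM, quasi-likelihood F test, Benjamini-Hochberg over 9972 genes with a mean FPKM above 1, threshold 0.1). The common biological coefficient of variation was 0.148. The SE of a log2 change was taken as its size over the root of its F statistic, and CPM as the share of the library total times 1e+06. Each line's change, the input and the genes of 1 table were tested the same way. Genes were named by a fixed rule, the 12 highest and 12 lowest interactions that were called, averaged 50 counts or more and did not overlap between groups in the line that moved more (pseudogenes, small RNAs, olfactory receptors and predicted genes apart), up to 5 members of each of 40 lists by smallest p, up to 6 genes a direction that moved oppositely, and genes that check the pull-downs or that the study's text names. The comparison, its members and the lists were chosen with earlier results of these data known. The fit was also run on simulated counts. These gave both lines the same spread at each gene, so that they could not check the unequal spread of the lines. Alternatives used DESeq2 1.42.0, limma 3.58.1, other scalings, other filters, fewer libraries and a replicate block. Within each line, same-numbered 12 h and naive libraries did not deviate together (correlations of -0.07 to 0.07), so that replicate numbers were not taken as pairs. A few genes are not reported here by name.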

Additional observations from a re-analysis of the deposited data

Results flagged for a closer look

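The responses of the lines at 12 h differed by the interaction test at 1294 genes in which the Isl1 change lay above the Dhh change and at 1280 in which it lay below. In 5 genes each line was called, with opposite signs, and the interaction was called as well. Its log2 value was -1.94 at Frmd4a, -1.04 at Tnrc6a, -0.94 at Sptan1 and -0.86 at Dicer1, where Isl1 fell and Dhh rose, and 1.32 at 9530077C05Rik, where Isl1 rose and Dhh fell.

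Genes listed in the table of 1 line only stood outside the comparison and were tested within that table. Of the 1520 genes listed for Isl1 only, 34 were higher and 44 lower at 12 h, and over the whole of that table the test called 592 of 11549 genes (5.13%). Of the 1255 genes listed for Dhh only, 232 were higher and 265 lower at 12 h, and over the whole of that table the test called 3686 of 11284 genes (32.7%).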

How the results depend on the processing

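Against 2574 interactions in the joint fit, the other settings called 1901 to 3006, none beyond 1.5 times the number, and 2160 of the 2310 called by limma voom and 2386 of the 2786 called by the DESeq2 Wald test were among the 2574. With a replicate block 2673 were called (2465 of them shared), 4 genes moved oppositely, and 53 genes were called in Isl1 and 4972 in Dhh. The Isl1 count of 73 became 139 with the DESeq2 Wald test, 155 with edgeR's likelihood ratio test, 718 with limma voom weighted by line, 512 with the line fitted alone, 25 with only the 12 libraries and 38 without replicate 3 of both 12 h groups. It ran from 15 to 115 when 1 library was left out. The Dhh count of 4900 became 3234 with the line fitted alone and 3271 with limma voom. The 5 genes with opposite directions became 9 with the DESeq2 Wald test, 9 with the likelihood ratio test, 38 with limma voom, 34 with each line alone, 3 with only the 12 libraries, 2 without replicate 3 of both 12 h groups, and 0 to 7 when 1 library was left out. The input count of 559 became 29 to 291 when 1 library was left out. Fewer libraries, or a spread shared with or separate from the more variable Dhh line, are part of how these alternatives are built, and other causes were not tested.

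Over the named genes, 361 results were each recomputed under the alternatives. Of 8462 values 8013 kept their direction and side of the threshold, 392 kept the direction and lost the call, 57 gained it, and 0 changed sign with a call. Over the lists 2666 of 2698 medians moved by less than the median SE of the list's single members in the joint fit. That SE belongs to single genes and is not the uncertainty of a list median. The fits with each line alone, without replicate 3 of both 12 h groups and without single input libraries were chosen after seeing the data. The 3 libraries a group, counting error at low counts and the absence of interactions for genes of 1 table limit these values.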

Other observations

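Injury genes that the tables list for 1 line only, chosen after their values were seen, add to the picture of each. In the Isl1 table Sox11, a transcription factor of axon regrowth, had 18.2, 24.6 and 14.6 CPM at 12 h against 11.6, 11.2 and 9.95 CPM in naive ganglia and rose (log2 change 0.84 ± 0.15, adjusted p = 0.017, edgeR within that table, n = 3 each). The groups did not overlap. Il6, a cytokine of the gp130 family, rose as well (2.58 ± 0.47, adjusted p = 0.017), as did Socs1, an inhibitor of cytokine signalling (1.77 ± 0.33, adjusted p = 0.018), and Bdnf, a neurotrophin (0.54 ± 0.11, adjusted p = 0.028). Rgs2, a regulator of G protein signalling, fell (-0.62 ± 0.12, adjusted p = 0.02). The neuropeptides Gal (-0.23 ± 0.21, adjusted p = 0.61) and Npy (0.15 ± 0.48, adjusted p = 0.91) were not called.

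In the Dhh table Fosb, an immediate early partner of Jun, had 17.7, 57.0 and 42.8 CPM at 12 h against 0.929, 1.95 and 0.841 CPM in naive ganglia and rose (5.18 ± 0.48, adjusted p = 4.0e-06). All 12 h libraries lay above the naive ones. Clcf1, a gp130 cytokine, rose (3.76 ± 0.45, adjusted p = 3.8e-05), as did Tnc, the matrix protein tenascin C (2.22 ± 0.24, adjusted p = 1.7e-05), and Gfap, the intermediate filament of reactive glia (2.02 ± 0.39, adjusted p = 0.0015). Lfng, a modifier of Notch receptors, fell (-2.22 ± 0.41, adjusted p = 0.0011), as did Gas1, a Hedgehog co-receptor (-1.97 ± 0.23, adjusted p = 3.6e-05). Whether these changes differ between the lines was not tested, since the other line has no value.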
